A study of Mus musculus with 5 samples.

Results

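The C-type lectin and killer cell receptor genes were taken as the protein-coding genes of GENCODE vM21, on the mouse assembly GRCm38, whose symbol begins with Clec or Klr, together with 4922502D21Rik. This gave 57 of 21755 protein-coding genes on the autosomes and the X chromosome. CpG methylation of each gene was read from whole-genome bisulfite sequencing (WGBS), in which unmethylated cytosine is converted and methylated cytosine is not, in the promoter (1 kb on each side of the annotated transcription start site, TSS) and in the gene body. The libraries were made from bone marrow blasts of mice with acute myeloid leukemia (AML), of the strain C57BL/6 in the labels, sorted as CD45.2+ cells without the T cell, B cell and erythroid markers CD3, B220 and Ter119. All 5 libraries carried Cebpa-/p30, that is, 1 deleted Cebpa allele and 1 allele that makes only the p30 isoform of the transcription factor CEBPA, and 2 of them were Tet2+/+ (libraries 23 and 24) and 3 were Tet2-/- (libraries 5, 7 and 8). Tet2 encodes a dioxygenase that oxidizes methylated cytosine. The deletions were made with Mx1-Cre, which acts in interferon-responsive cells and was switched on with poly(I)-poly(C) after bone marrow of the floxed mice had been transplanted into irradiated C57BL/6J.SJL recipients, and any cell that escaped deletion would carry the floxed allele. In the bulk DNA of a library, a change of the level in all cells and a change of the mixture of cells cannot be told apart. 4922502D21Rik is in the set because its promoter differed between the genotypes in an earlier analysis of these libraries, so its difference is described here without a test.

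C-type lectins are receptors and secreted proteins that share a fold for binding sugars or proteins. In the mouse, most genes for the killer cell receptors of natural killer (NK) cells belong to the same family and lie side by side on chromosome 6, in a block called the NK gene complex. Ly49 receptors (Klra genes) read classical MHC class I on other cells, CD94 paired with NKG2A reads a non-classical one, NKG2D (Klrk1) binds stress-induced ligands, and NKR-P1 receptors (Klrb1 genes) bind Clr proteins, which are encoded by Clec2 genes in the same block. The receptors of the Dectin-1 and Dectin-2 groups are used by myeloid cells to sense fungi, mycobacteria and damaged cells. On chromosome 6, 35 members formed the longest run in which neighbours were at most 1 Mb apart (chr6:128609227-131247362, hereafter the chromosome 6 cluster), 10 formed a second run (Klrg1 and the Dectin-2 group, chr6:122270596-123289870) and 4 stood alone (Klrg2, Clec2l, Clec5a and Clec4f). The other 8 lay on other chromosomes.

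Libraries held 63111735 to 110752967 methylation calls on the autosomes and the X chromosome, or 2.96 to 5.19 calls per CpG dyad (both strands added). Methylation of all dyads was 67.3% and 62.3% in Tet2+/+ and 70.9%, 74.8% and 68.4% in Tet2-/-, so that most regions sat higher in Tet2-/-. As a check of the labels, depth over Tet2 exon 11, relative to the library, was 0.908 and 1.15 in Tet2+/+ and 0.317 to 0.440 in Tet2-/-. Exon 3, which holds the most dyads, had 1.37 and 1.35 against 1.25, 1.23 and 1.34. The methods of the study do not name the floxed exon. Promoters of 9 granulocyte and monocyte genes had medians of 5.21% to 18.2% over the libraries, with Prtn3 at 0.487% to 2.08% and Mpo at 7.46% to 16.2% but Itgam at 31.6% to 41.0% and Elane at 33.3% to 53.4%. Those of 6 T cell genes had medians of 68.5% to 87.1%, with Cd3e at 55.4% to 78.2% but Bcl11b at 9.51% to 42.7%, and those of 8 NK genes had medians of 19.3% to 36.6%, with Tbx21 at 2.91% to 5.18% but Ncr1 at 56.1% to 89.6%. Between the genotypes, Cebpe, 1 of the 9 granulocyte and monocyte promoters, was the only promoter of these lists and of the B cell, erythroid, dendritic and megakaryocyte lists to pass the edgeR test described with the members (2.92% and 2.43% in Tet2+/+, 9.58%, 21.5% and 27.0% in Tet2-/-). Among gene bodies of the same lists, those that passed were all higher in Tet2-/-, with 4 of 9 granulocyte and monocyte genes, 2 of 8 NK genes, 3 of 6 T cell genes, 2 of 6 B cell genes, 1 of 4 erythroid genes, 2 of 5 dendritic genes and 2 of 4 megakaryocyte genes. Over the whole genome 1.07% of promoters and 15.5% of bodies passed. The part of the mixture of cells in the results below was not tested.

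The stretch that carried the largest difference among the members lies at the start of 4922502D21Rik, which RefSeq names Clec2m, a gene on the minus strand between Clec2d and Clec12a. The first sequence below covers the 300 bases from 12 to 311 bp upstream of its annotated start (chr6:129331808-129332107, minus strand, GRCm38.p6), the second covers 300 bases of a nearby stretch that stayed unmethylated (chr6:129333799-129334098, minus strand), and the third covers 300 bases upstream of the annotated start of Klrg1, the tested member with the next largest promoter difference (chr6:122282883-122283182, minus strand). All are written 5′ to 3′ with CpGs in capitals.
4922502D21Rik start: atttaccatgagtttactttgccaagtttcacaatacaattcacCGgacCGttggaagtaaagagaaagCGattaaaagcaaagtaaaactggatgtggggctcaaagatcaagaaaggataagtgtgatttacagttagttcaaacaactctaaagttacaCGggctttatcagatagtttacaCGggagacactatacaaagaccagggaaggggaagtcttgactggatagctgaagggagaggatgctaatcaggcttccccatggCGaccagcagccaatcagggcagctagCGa
4922502D21Rik upstream: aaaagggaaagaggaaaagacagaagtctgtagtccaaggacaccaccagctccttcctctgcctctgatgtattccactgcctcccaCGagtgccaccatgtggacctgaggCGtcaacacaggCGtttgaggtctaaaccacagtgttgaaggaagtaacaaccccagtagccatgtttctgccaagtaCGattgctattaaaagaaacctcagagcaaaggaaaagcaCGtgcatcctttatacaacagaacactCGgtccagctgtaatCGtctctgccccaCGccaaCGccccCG
Klrg1 upstream: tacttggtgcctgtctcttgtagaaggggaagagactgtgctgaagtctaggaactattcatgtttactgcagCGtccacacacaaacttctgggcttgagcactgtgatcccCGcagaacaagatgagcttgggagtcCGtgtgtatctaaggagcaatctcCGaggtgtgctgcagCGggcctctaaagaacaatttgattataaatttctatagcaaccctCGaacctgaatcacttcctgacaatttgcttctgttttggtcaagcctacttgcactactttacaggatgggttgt

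In the first sequence, with 7 CpGs, methylation was 0% (0 of 48 calls, which allows up to 6.25%) and 2.50% in the Tet2+/+ libraries, and 64.3%, 86.5% and 83.3% in the Tet2-/- libraries. Both Tet2+/+ libraries thus had almost no methylated call there, and most calls were methylated in each Tet2-/- library. Calls ranged from 12 in library 8 to 56 in library 5. The second sequence holds 10 CpGs and lies 2003 to 2302 bp upstream of the annotated start. Its methylation was 0% in 4 libraries, on 37 to 61 calls, and 2.56% in library 8, so that both genotypes were unmethylated there. Upstream of Klrg1, the third sequence with 6 CpGs had 37.0% and 48.5% in Tet2+/+ and 77.8%, 89.7% and 86.7% in Tet2-/-, on 15 to 45 calls.

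Over its whole promoter (chr6:129330796-129332796, 23 dyads), 4922502D21Rik had 23.1% and 21.8% in Tet2+/+ and 71.4%, 89.3% and 85.1% in Tet2-/-, on 87 to 168 calls. Tet2+/+ averaged 22.4% ± 0.907 (SD, n = 2) against 81.9% ± 9.33 (SD, n = 3) in Tet2-/-, which gives a difference of 59.5 percentage points. Within 300 bp of the start, on 16 dyads, the level was 5.43% (95% Wilson interval 2.34% to 12.1%, counting error only) and 8.0% in Tet2+/+, against 63.9%, 86.8% and 80.6% in Tet2-/-. The gap between the genotypes was smaller next to these 300 bp. From 300 to 1000 bp upstream, on only 2 dyads, the levels were 80% and 80% against 100%, 100% and 90%. From 300 to 1000 bp downstream, Tet2+/+ was already at 93.3% and 75.0% and Tet2-/- at 93.1%, 96.8% and 100%, and from 1000 to 1500 bp upstream the levels were 81.0% and 87.5% against 78.0%, 95.2% and 100%. The unmethylated stretch began beyond this shore. On its far edge, the segment from 2400 to 3000 bp upstream held only 4 dyads, all between positions 129334219 and 129334238 of chr6. There 0 of 14 and 0 of 20 calls were methylated in Tet2+/+, and 10.7%, 65.0% and 30.3% were in Tet2-/-, on 20 to 33 calls. The zeros allow up to 21.4% and 15.0% if calls are independent, but dyads this close can share a read.

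**Figure D1:**
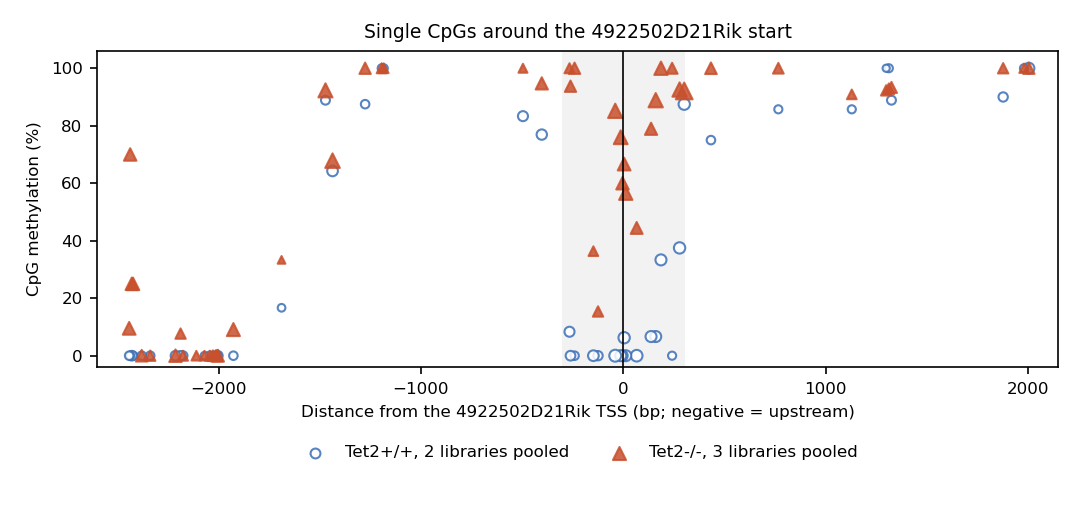
Methylation (%) of single CpGs by their distance from the annotated 4922502D21Rik start (bp, negative is upstream), with calls pooled over the 2 Tet2+/+ libraries (circles) and the 3 Tet2-/- libraries (triangles) and marker area growing with the calls, for CpGs with at least 5 calls in a genotype. In the shaded 300 bp on each side of the start, most circles lie near 0, apart from those 186 and 278 bp downstream (5 of 15 and 6 of 16 calls), and triangles lie above them, while around 2000 bp upstream both lie near 0.

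Levels in Tet2-/- were uneven inside the 300 bp. At the CpGs 40 and 13 bp upstream of the start, 23 of 27 and 19 of 25 pooled calls were methylated in Tet2-/-, against 0 of 18 and 0 of 15 in Tet2+/+. At 241 and 261 bp upstream, 16 of 16 and 15 of 16 calls were methylated in Tet2-/-, while the CpGs between, at 125 and 148 bp, had 2 of 13 and 4 of 11. These counts pool the libraries of a genotype and carry no test. The gene body of 4922502D21Rik, which overlaps the promoter, had 67% and 57.6% in Tet2+/+ and 69.0%, 84.7% and 80.2% in Tet2-/-, a difference of 15.7 points. None of its promoter's 50-base words occurred elsewhere in the converted genome, so its reads could be placed. By the mean absolute distance of the 5 library values, the member promoters most like it were Clec4g (18.8 points), Klrg1 (19.5 points) and Klrb1c (20.4 points). As the gene was chosen for these same values, its distance from the other members is a description and no test.

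Of the 57 member promoters, 43 had at least 20 calls in every library and were tested. Regions were compared by their methylated and unmethylated call counts in edgeR (quasi-likelihood test), adjusted by Benjamini-Hochberg over all 19455 promoters, of which 1.07% passed an adjusted p of 0.05. Apart from 4922502D21Rik, 0 of 42 member promoters passed. At an unadjusted p under 0.05 there were 7 of 42, against 3522 of all 19455 promoters. By limma on log ratios 0 of the 42 passed, against 0.930% of all promoters, and by edgeR's likelihood ratio test 1 did, Klrg1, against 5.50% of all promoters. Klrg1 also passed the main test without library 5. In 14 of the 42, all Tet2-/- libraries lay above both Tet2+/+ libraries, or 33.3%, against 32.8% of all promoters. The share was 38.2% of CpG-poor promoters, those with no more dyads than the richest tested promoter of the chromosome 6 cluster (at most 31). These CpG-poor promoters had a median of 19 dyads, and the 42 members a median of 14 with a range of 5 to 134. In 1 of the 42, Clec4b2, all Tet2-/- libraries lay below, against 4.05% of all promoters. The median difference was 8.79 points without 4922502D21Rik and 8.89 points with it, against 2.22 over all promoters and 7.14 over the CpG-poor ones. With it, the median was 2.73 without Tet2+/+ library 23, 4.03 without Tet2-/- library 7 and 4.57 after each library was centred on its own median promoter. Centring takes the same amount off the difference of every promoter, so it leaves the gaps to all and to CpG-poor promoters unchanged. With a library left out, the medians of all and of CpG-poor promoters were not computed, so 2.73 and 4.03 have no comparison.

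**Figure D2:**
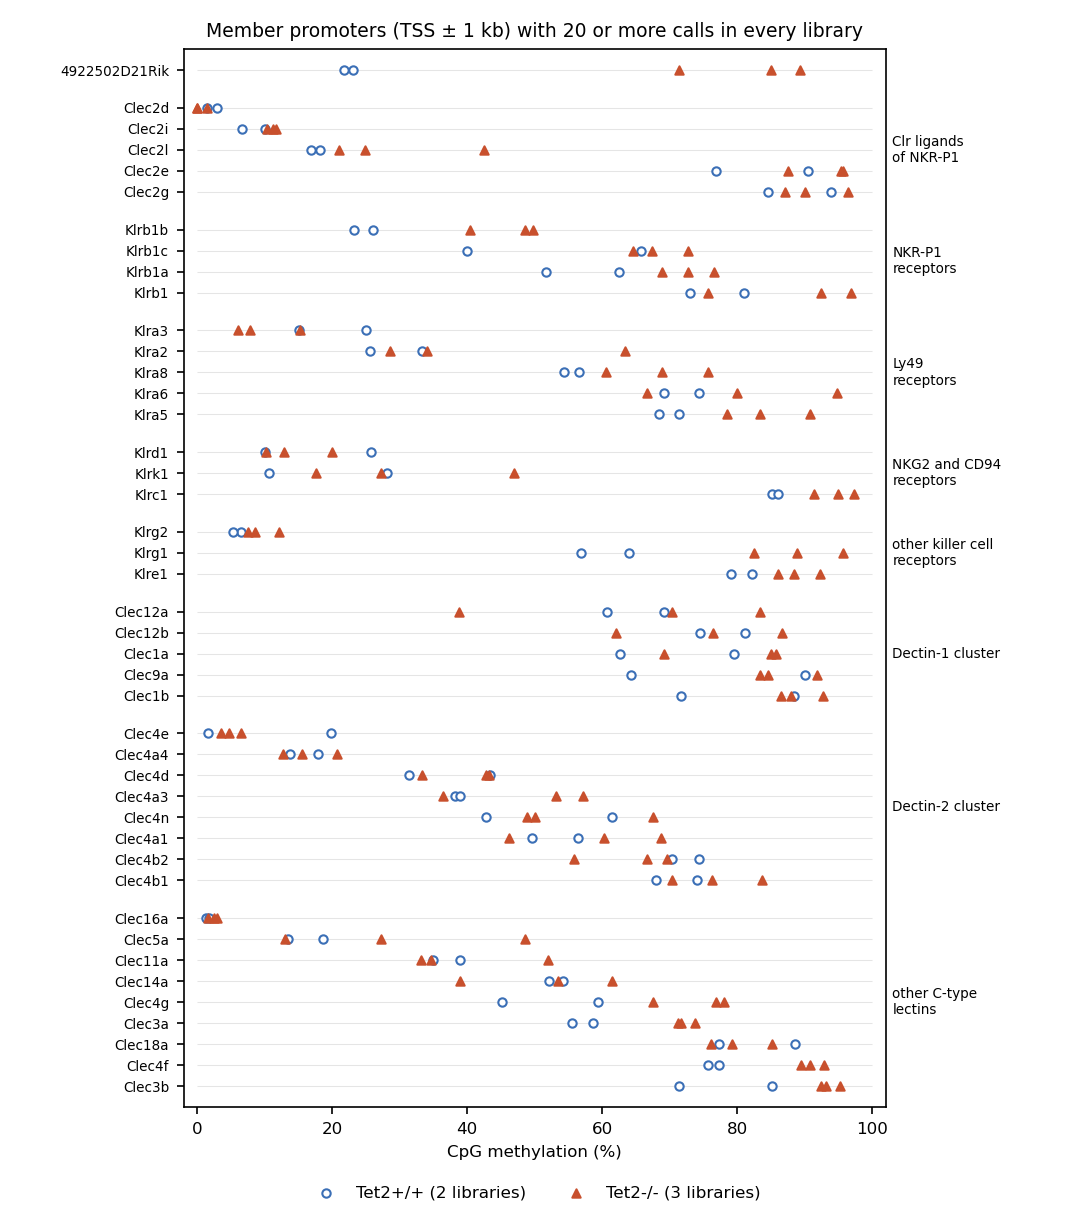
Promoter methylation (%) of the 43 tested members by role, with a circle for each of the 2 Tet2+/+ libraries and a triangle for each of the 3 Tet2-/- libraries. 4922502D21Rik, at the top, was chosen for its difference, no other promoter had an adjusted p under 0.05, and Clec2d, Clec16a, Clec4e, Klrg2 and Clec2i sit at the low end in both genotypes.

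Klrg1, an inhibitory receptor of mature NK and T cells that binds cadherins, had the largest difference of the tested promoters after 4922502D21Rik. Its promoter held 64% and 56.9% in Tet2+/+ and 82.5%, 95.6% and 88.9% in Tet2-/-, on 81 to 166 calls. Tet2+/+ averaged 60.4% ± 5.01 (SD, n = 2) against 89.0% ± 6.55 (SD, n = 3) in Tet2-/-, and the groups did not overlap. The adjusted p of edgeR's quasi-likelihood test was 0.0550, just outside the threshold, and over the alternatives it ran from 0.000928 to 0.523. Its gene body had 76.1% and 70.0% against 81.4%, 88.1% and 77.9%, with an adjusted p of 0.0620 by the same edgeR test. Of the other killer cell receptors outside the named families, Klrg2 had a CpG-rich promoter of 134 dyads that stayed low, at 6.54% and 5.29% in Tet2+/+ and 7.60%, 8.57% and 12.1% in Tet2-/-. Klre1, which pairs with Klri receptors, was methylated in both genotypes, at 82.2% and 79.1% against 88.5%, 92.3% and 86.0%.

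All 4 tested promoters of NKR-P1 receptors had a higher mean in Tet2-/-, as had 33 of the 42 tested members other than 4922502D21Rik. In 2 of the 4, all Tet2-/- libraries lay above both Tet2+/+ libraries, against 32.8% of all promoters. Klrb1b, which encodes the inhibitory receptor of the Clr-b ligand, had 23.2% and 26.1% in Tet2+/+ and 48.6%, 49.7% and 40.4% in Tet2-/-, on 99 to 187 calls. The difference was 21.6 points, with an adjusted p of 0.135 in edgeR's quasi-likelihood test. The 1 kb upstream of the start had 6.00% and 13.6% against 33.3%, 32.8% and 27.3%, and the first 1 kb of the gene had 40.8% and 33.3% against 57.4%, 59.2% and 47.0%. The next bins out did not share one direction. From 1 to 2 kb upstream all Tet2-/- libraries lay below, at 79.3% and 86.7% against 71.1%, 70.6% and 56.5%, and from 1 to 2 kb into the gene the groups overlapped, at 75.0% and 45.5% against 83.9%, 68.4% and 85.7%. Farther into the gene, at 2 to 3 kb, the levels were 40% and 29.6% against 59.0%, 51.1% and 63.4%. The readthrough gene Gm44511 has the same promoter values, so the start cannot be given to either gene. Klrb1a had 62.5% and 51.7% against 76.6%, 68.8% and 72.7% at its GENCODE start, where 36.2% of the 50-base words occurred elsewhere in the genome. At its RefSeq start, 599 bp away, the groups overlapped, at 69.6% and 72.1% against 81.7%, 81.2% and 68.4%, on 19 to 82 calls. Klrb1c, whose product is the NK1.1 antigen, had 40% and 65.8% in Tet2+/+ and 64.5%, 67.3% and 72.7% in Tet2-/-, so that the groups overlapped, and Klrb1 had 73.0% and 81.1% against 92.5%, 96.9% and 75.8%.

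The Clr ligands of these receptors had promoters of very different levels. Clec2g and Clec2e were the highest, with means over the 5 libraries of 90.4% and 89.2% and their lowest values, 84.6% and 76.9%, in library 23. Clec2d, the Clr-b ligand that most blood cells display and that holds NK cells back through Klrb1b, had the lowest promoter of all members. It measured 2.99% and 1.43% in Tet2+/+ and 0%, 1.48% and 0% in Tet2-/-, and the zeros allow up to 3.09% and 4.29%. Clec2i, another Clr gene, was low as well, at 6.58% and 10.0% against 11.2%, 11.7% and 10.3%. Clec2l, a relative expressed in brain that stands alone on chromosome 6, had 18.1% and 16.8% in Tet2+/+ and 24.8%, 21% and 42.5% in Tet2-/-. Its adjusted p in edgeR was 0.326, and none of the 5 tested Clr promoters passed, against 1.07% of all promoters.

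Among the 11 Ly49 promoters only 5 reached 20 calls in every library. Klra5 had 68.4% and 71.4% in Tet2+/+ and 83.3%, 90.8% and 78.6% in Tet2-/-, with an adjusted p of 0.294 in edgeR. Klra8, the Ly49H receptor that recognises cytomegalovirus-infected cells, had 56.6% and 54.3% against 75.7%, 68.9% and 60.5%, with an adjusted edgeR p of 0.435. In both, all Tet2-/- libraries lay above both Tet2+/+ libraries, which made 2 of the 5 tested, against 32.8% of all promoters. Of the sequence words of the Klra5 and Klra8 promoters, 27.9% and 50.7% occurred elsewhere in the genome. Klra3 ran the other way without leaving the spread of the libraries, at 25.0% and 15.2% against 15.3%, 7.84% and 6.12%, and it was the lowest Ly49 promoter. The remaining tested promoters, Klra6 and Klra2, overlapped between the genotypes.

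Of the receptors built on CD94 and the NKG2 genes, 3 of 5 promoters could be tested. Klrd1, the gene of CD94, had a promoter of 8 dyads with 10.0% and 25.8% in Tet2+/+ and 12.9%, 10.3% and 20% in Tet2-/-. Klrk1, the gene of the activating receptor NKG2D, had 10.7% and 28.1% against 17.6%, 46.9% and 27.3%. Both were low and overlapped between the genotypes, on 20 to 39 calls. Klrc1, the gene of NKG2A, was the most methylated tested promoter, at 85.2% and 86.0% in Tet2+/+ and 97.3%, 91.4% and 95.0% in Tet2-/-, with an adjusted p of 0.271 in edgeR.

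The 5 tested promoters of the Dectin-1 group were mostly methylated, and in 0 of them did all Tet2-/- libraries lie above, against 32.8% of all promoters. Clec9a, a receptor for dead cells on dendritic cells, had 64.3% and 90.0% in Tet2+/+ and 83.3%, 91.9% and 84.6% in Tet2-/-, and Clec1b, the podoplanin receptor of platelets, had 71.6% and 88.5% against 87.9%, 92.7% and 86.5%. Clec12b had 74.6% and 81.1% against 76.4%, 86.7% and 62.1%. For Clec12a, an inhibitory receptor of myeloid cells, the level depended on the start. At the GENCODE start it measured 60.7% and 69.2% against 38.8%, 70.3% and 83.3%, on 24 to 67 calls. At the RefSeq start, which lies 7553 bp farther along the gene, 1 kb on each side measured 0% in libraries 23, 24 and 5, 5.41% in library 7 and 3.70% in library 8, on 27 to 44 calls. The zeros allow up to 6.82% to 11.1%. RefSeq starts were found for 48 of the 57 members, and for 4 of them, Clec12a, Clec18a, Clec4a2 and Klra5, no RefSeq start lay within 1 kb of the GENCODE start. At the RefSeq start of Klra5, the levels were 25.0% and 6.25% in Tet2+/+ and 41.7%, 100% and 83.3% in Tet2-/-, on only 12 to 28 calls.

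In the Dectin-2 group, Clec4e (Mincle, the receptor for mycobacterial cord factor) had the lowest promoter, at 19.8% and 1.63% in Tet2+/+ and 4.68%, 3.53% and 6.45% in Tet2-/-. Library 23 stood apart there from the other 4 libraries. Its partner Clec4d, encoded beside it, had 31.4% and 43.3% against 33.3%, 43.2% and 42.9%. Clec4b2 was the only tested member promoter in which all Tet2-/- libraries lay below, at 70.4% and 74.3% against 66.7%, 55.9% and 69.6%, on 23 to 36 calls, with an adjusted p of 0.677 in edgeR. Clec4a3 had the largest positive difference of the group, 10.3 points, with overlapping groups. None of the 8 tested promoters of this group had all Tet2-/- libraries above both Tet2+/+ libraries, against 32.8% of all promoters.

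The remaining C-type lectins are scattered over the genome and differ in function. Clec16a, a regulator of mitophagy, had an unmethylated CpG-rich promoter of 94 dyads, at 1.30% and 1.77% in Tet2+/+ and 2.97%, 2.54% and 1.66% in Tet2-/-. Clec4g, a lectin of liver sinusoidal cells, had 45.1% and 59.3% against 76.9%, 78.0% and 67.6%, a difference of 22.0 points with an adjusted p of 0.19 in edgeR. Clec3b, the gene of the plasma protein tetranectin, had 85.1% and 71.4% against 92.4%, 93.2% and 95.2% (adjusted edgeR p 0.142). Clec4f, a galactose-binding receptor of Kupffer cells, had 77.4% and 75.6% against 90.8%, 92.9% and 89.5% (adjusted edgeR p 0.117). Clec5a, a myeloid receptor that signals through DAP12, had 13.5% and 18.7% in Tet2+/+ and 13.0%, 48.6% and 27.3% in Tet2-/-, so that library 5 lay with the Tet2+/+ libraries and library 7 far above. Clec10a, a galactose-binding lectin of macrophages and dendritic cells, was tested only in its body, at 67.4% and 66.9% against 67.5%, 76.9% and 72.5% (adjusted edgeR p 0.450). Its promoter, on 19 to 31 calls, had 84.2% and 69.2% against 90.3%, 100% and 95.0%. Of the 50-base words, 69.4% of the promoter and 48.55% of the body occurred elsewhere in the genome. Clec18a had 77.3% and 88.6% against 79.2%, 85.2% and 76.1% at its GENCODE start, where the groups overlapped. At its RefSeq start, 10718 bp away, it had 57.7% and 53.1% in Tet2+/+ and 68.7%, 68.4% and 66.7% in Tet2-/-, so that all Tet2-/- libraries lay above there.

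All 57 gene bodies had at least 20 calls in every library. Bodies were tested over 20715 genes, of which 15.5% passed, and 2 of the 56 members other than 4922502D21Rik passed, Clec4f and Clec12a, both higher in Tet2-/-. The calls depended on the libraries and on the test. Without library 24, or with limma in place of edgeR, 0 members passed (0.425% and 2.34% of all bodies did), and without library 7 only Clec4f passed (10.5% of all bodies). Without library 8, where 16.2% of all bodies passed, Clec12a no longer did, while Clec4a4, Klra17, Klre1 and Klrg1 did. In 25 of the 56 bodies, or 44.6%, all Tet2-/- libraries lay above both Tet2+/+ libraries, against 46.0% of all bodies, and in 0 they lay below, against 1.46%. The median difference was 5.48 points for these 56 members, 5.55 with 4922502D21Rik, and 4.95 for all bodies. Centring each library on its median body turned the 5.55 to -0.895. As centring takes the same amount off the difference of every body, the gap between members and all bodies stays as it was.

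**Figure D3:**
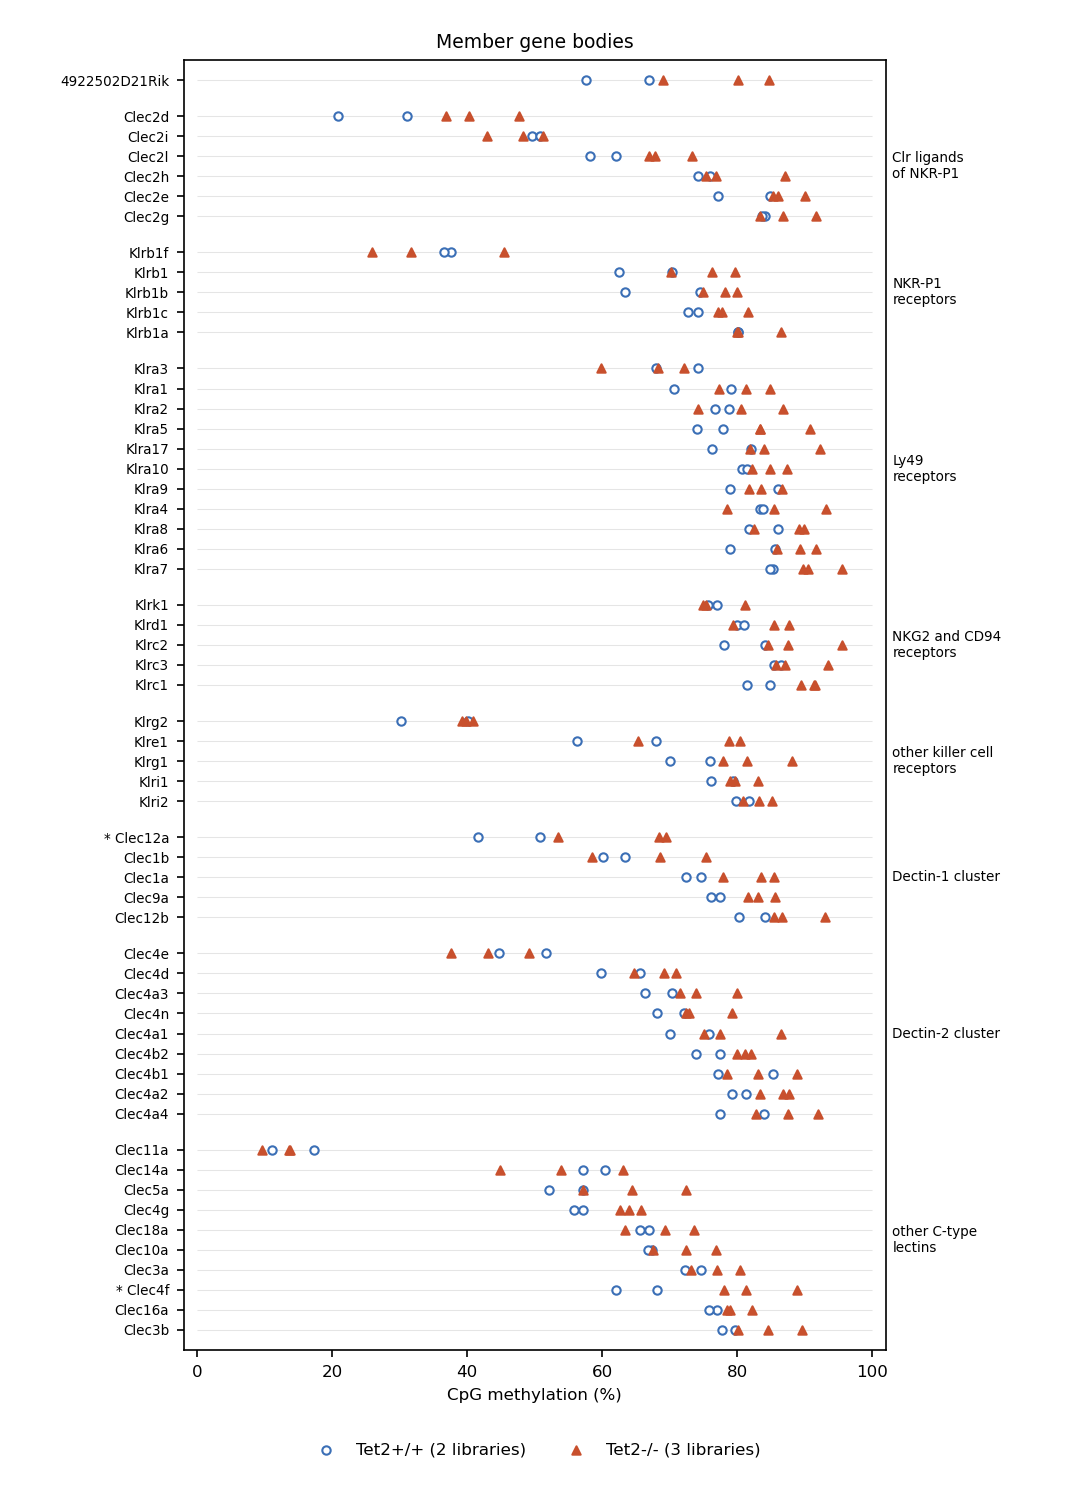
Gene body methylation (%) of the 57 members by role, with a circle for each of the 2 Tet2+/+ libraries and a triangle for each of the 3 Tet2-/- libraries. Stars mark an adjusted p under 0.05, on Clec12a and Clec4f (4922502D21Rik, at the top, was chosen for its promoter and is not marked), and most bodies lie between 60% and 95% in every library, with Clec11a, Clec2d and Klrb1f among the lowest.

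Clec4f had the largest difference of a member body. It measured 68.1% and 62.0% in Tet2+/+ and 78.1%, 88.9% and 81.3% in Tet2-/-, on 492 to 757 calls. Tet2+/+ averaged 65.0% ± 4.30 (SD, n = 2) against 82.8% ± 5.55 (SD, n = 3) in Tet2-/-, and the adjusted p in edgeR was 0.000762. In 1 kb bins the rise was seen in the gene and on both flanks. It was 32.5 points at 4 to 5 kb from the start (43.3% and 26.7% against 61.5%, 79.2% and 61.9%) and 30.2 points at 3 to 4 kb upstream (55.6% and 43.4% against 81.8%, 81.4% and 75.8%), and 41.6 points at 15 to 16 kb, past the gene's end (44.1% and 21.4% against 59.1%, 89.7% and 74.4%).

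The body of Clec12a measured 50.9% and 41.6% in Tet2+/+ and 53.5%, 69.5% and 68.4% in Tet2-/-, on 370 to 647 calls. Tet2+/+ averaged 46.2% ± 6.55 (SD, n = 2) against 63.8% ± 8.95 (SD, n = 3) in Tet2-/-, with an adjusted edgeR p of 0.0205. The rise was uneven along the gene. From 10 to 13 kb after the GENCODE start, 3 neighbouring bins were 33.0 to 39.0 points higher in Tet2-/-, while the bin that holds the RefSeq start stayed at 0% in every library on 15 to 23 calls. A further bin, at 25 to 26 kb and past the gene's end, was 35.8 points higher. The first of the 3 neighbouring bins had 6.67% and 18.2% in Tet2+/+ and 37.1%, 60% and 57.1% in Tet2-/-.

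Clec2d had a similar contrast inside one gene, with a promoter near 0% and a body at a higher level. The body measured 31.1% and 20.8% in Tet2+/+ and 36.8%, 40.2% and 47.7% in Tet2-/-, a difference of 15.6 points without overlap and with an adjusted p of 0.113 in edgeR. Between 4 and 5 kb from the start the levels were 45.5% and 21.1% against 57.1%, 78.6% and 95.0%, on 19 to 35 calls. Klra5 followed among the bodies whose groups did not overlap, with 9.89 points and an adjusted p of 0.139. No member body fell in all Tet2-/- libraries. Clec4e, the gene with the lowest body difference, had 51.7% and 44.7% against 43.2%, 37.6% and 49.2%, and these overlapped.

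**Figure D4:**
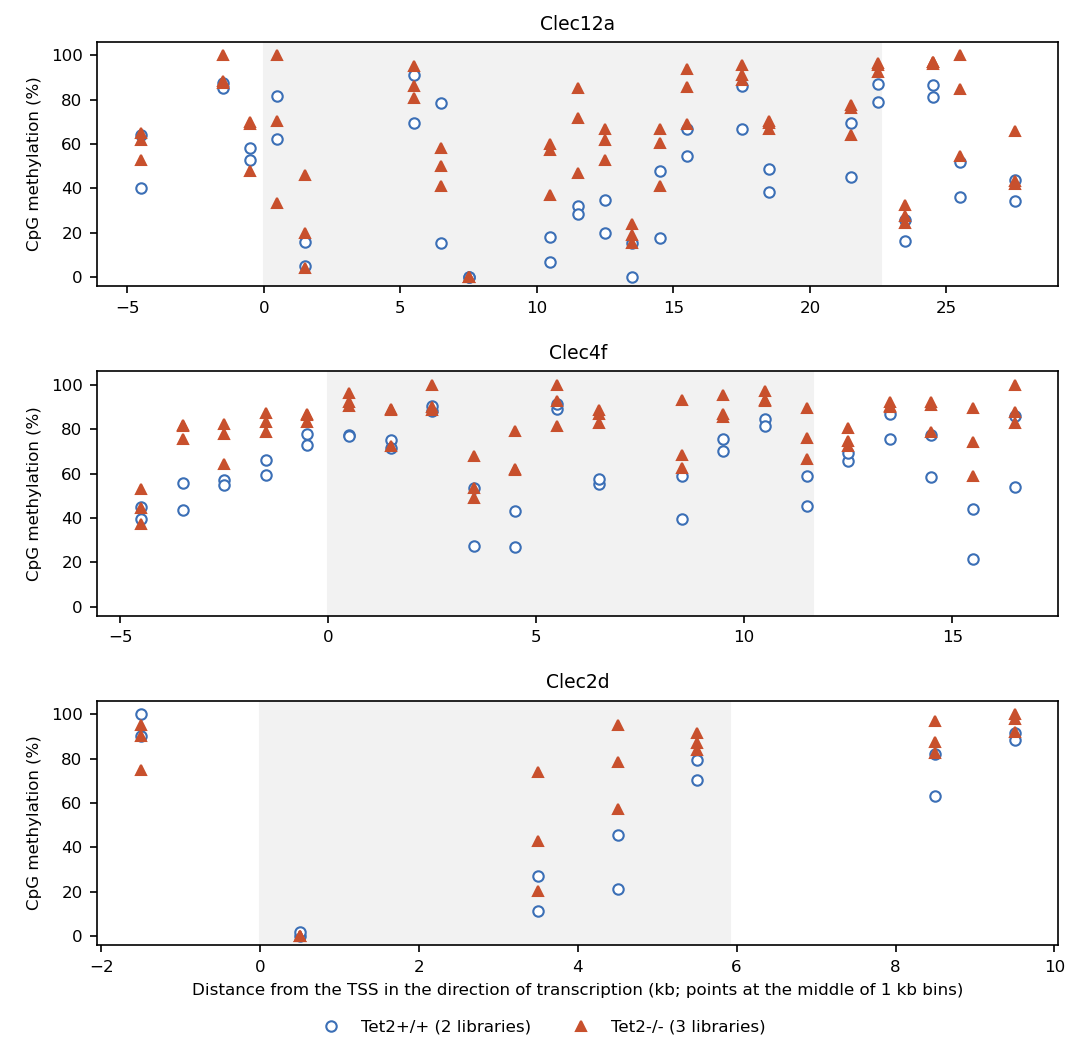
Methylation (%) of Clec12a, Clec4f and Clec2d in 1 kb bins by distance from the GENCODE start (kb, in the direction of transcription), with a circle for each Tet2+/+ library and a triangle for each Tet2-/- library and the gene body shaded. Bins with under 10 calls in any library are left out, and the Tet2-/- libraries lie above both Tet2+/+ libraries from 10 to 13 kb in Clec12a and from 4 to 5 kb in Clec2d.

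The chromosome 6 cluster was then set beside the other members. Its 23 tested promoters, 4922502D21Rik included, had medians of 62.5% and 69.2% in Tet2+/+ and 71.4%, 85.8% and 75.8% in Tet2-/-. Without that gene, which was chosen for its difference, the 22 left had 62.5% and 70.3% against 72.4%, 78.1% and 74.2%. The 20 tested promoters outside the cluster had 44.0% and 54.9% against 56.8%, 56.5% and 44.5%. The median difference was 8.99 points in the cluster (8.96 without 4922502D21Rik) and 4.48 points outside it. Without Tet2+/+ library 23 this order turned, at 2.41 points in the cluster, 4922502D21Rik included, and 3.70 points outside. Leaving out 4922502D21Rik, all Tet2-/- libraries lay above in 7 of 22 cluster promoters, or 31.8%, and in 7 of the 20 others, or 35.0%, both near the 32.8% of all promoters and the 38.2% of CpG-poor ones. Gene bodies differed by medians of 5.69 points in the cluster (5.55 without 4922502D21Rik) and 5.48 points outside, and the sign of that small gap turned without library 24 or library 7. Summed over its whole length the cluster was CpG-poor, with 5.91 dyads per kb against 8.11 in the genome, and more methylated than the genome, at 72.2% and 70.0% in Tet2+/+ and 74.6%, 80.7% and 72.0% in Tet2-/-. The groups overlapped, with a difference of 4.61 points and an exact permutation p of 0.3 (two-sided, 10 splits, smallest possible p 0.1, adjusted p 0.3 over 5 values tested). The second run differed by 7.95 points, with an exact permutation p of 0.1 (adjusted 0.167), and the genome as a whole by 6.52 points, with an exact permutation p of 0.2 (adjusted 0.25).

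Along the cluster, 504 tiles of 5 kb were tested and 7, or 1.39%, passed in edgeR, all higher in Tet2-/-, against 3.24% of 488658 tiles in the genome. The 7 and the 1.39% include the tile over the start of 4922502D21Rik, whose call is no test. All Tet2-/- libraries lay above in 24.8% of the cluster tiles, against 36.6% of all tiles, and below in 2.18%, against 1.28%. Calls per dyad in the cluster were 0.753 to 0.829 of the library's mean, and all tiles are no background matched for depth or CpG content. The part of depth in these shares, and in those of the windows below, was not tested. Of the 7, one held the start of 4922502D21Rik, which was chosen for its difference, 2 lay next to each other in Clec12a (chr6:129350001-129355000 and chr6:129355001-129360000), and 1 lay 79.3 kb to the other side, nearest to Cd69 (chr6:129250001-129255000). The first Clec12a tile had 15.4% and 16.5% in Tet2+/+ and 30.3%, 51.8% and 48.8% in Tet2-/-, with an adjusted p of 0.0162. The other 3 lay among the Ly49 genes, in Klra5 (chr6:129910001-129915000), between genes near Klra4 (chr6:130075001-130080000) and between genes near Klra1 (chr6:130440001-130445000). The tile near Klra4 had 47.3% and 40.5% against 79.3%, 79.5% and 74.4%, a difference of 33.8 points with an adjusted p of 0.00680. None of the 7 passed without library 23 or without library 24, where 0 cluster tiles passed in all, and limma on centred log ratios also called 0. Calls fell over the whole genome as well under these settings, from 3.24% of all tiles to 1.07% without library 23, 0.0565% without library 24 and 0.0636% with limma on centred log ratios.

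**Figure D5:**
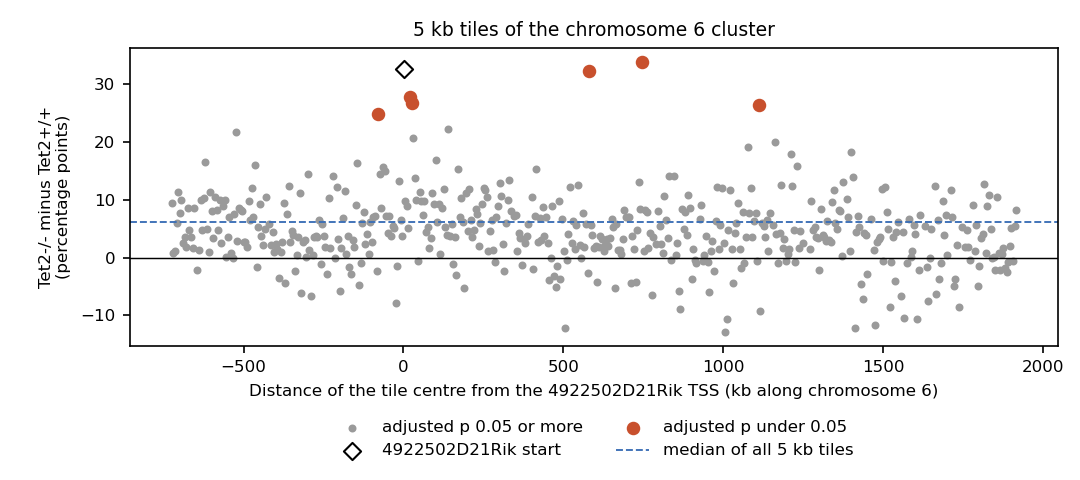
Difference in methylation (Tet2-/- minus Tet2+/+, percentage points) of the 504 tested 5 kb tiles of the chromosome 6 cluster by distance of the tile centre from the 4922502D21Rik start (kb), with tiles of an adjusted p under 0.05 in color, the tile of the 4922502D21Rik start as an open diamond and the median of all genome tiles as a dashed line. These 7 tiles lie 24.8 to 33.8 points above 0, with 4 of them, the diamond included, between 79.3 kb on one side and 25.7 kb on the other side of the 4922502D21Rik start.

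Windows of 500 bp with at least 10 calls in every library gave a finer view, chosen after the tiles had been seen and read without a test. Of 948 such windows in the cluster, all Tet2-/- libraries lay above in 22.5%, against 27.6% of all windows, and below in 4.11%, against 2.93%. Among the 158 windows with at least 10 dyads they lay above in 20.9%, against 32.9% in the genome. Differences of at least 50 points without overlap were found in 5 windows, of which 2 are adjacent windows at the start of 4922502D21Rik, the gene chosen for that difference. Leaving out the 3 windows over its promoter, 3 of 945 remained, or 0.317%, against 0.488% of all windows. One, chr6:129913001-129913500, covers the RefSeq start of Klra5, with 25.0% and 9.09% in Tet2+/+ and 45.0%, 100% and 80.0% in Tet2-/- on 10 to 24 calls. The remaining 2 lie away from annotated starts. Window chr6:128805501-128806000, inside the readthrough gene Gm44511, had 25.0% and 19.0% against 65.5%, 82.4% and 78.0% on 41 to 84 calls, and window chr6:130444001-130444500, between genes in the called tile near Klra1, had 20% and 18.2% against 73.2%, 92.9% and 79.2% on 24 to 41 calls. In 22 of the 158 denser windows every library stayed below 10%, against 9.69% of such windows in the genome.

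Some members could not be read at every start. In 27 member promoters over 10% of the 50-base words of the converted sequence occurred elsewhere in the genome, and 12 of these lacked 20 calls in some library, against 2 of the other 30. Klrc2 and Klrc3, the genes of NKG2C and NKG2E, had 94.1% and 91.5% of such words and a relative depth (calls per dyad over the library's mean) from 0.168 to 0.374 and from 0.0597 to 0.397. The 14 promoters that were not tested were those of Clec10a, Clec4a2, Clec2h, Klrb1f, Klrc2, Klrc3, Klri1, Klri2, Klra1, Klra4, Klra7, Klra9, Klra10 and Klra17. Over the 28 tested promoters with at most 10% such words, 4922502D21Rik included, the median difference was 8.96 points. Among other named promoters, the share of such words was 36.7% in Clec2d and in Clec2g, 32.6% in Klrb1c, 22.4% in Clec2i and 18.0% in Clec4g. The part of misplaced reads in the levels of these promoters and of the Ly49 and NKG2 genes was not tested.

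Genes that work with these receptors were read for comparison. Of 13 adaptor and signalling genes, 0 promoters passed in edgeR, against 1.07% of all promoters, and they were mostly unmethylated, with library medians of 4.62% to 9.52%. Tyrobp, the gene of the adaptor DAP12, had 2.50% and 2.68% at its promoter against 0.575%, 5.34% and 3.74%, but its body passed, at 9.74% and 10.0% against 22.4%, 27.6% and 27.5% (adjusted edgeR p 0.0131). The body of Zap70, a kinase of NK and T cells, passed as well, which made 2 of 13, a share close to the 15.5% of all bodies. Among 8 ligand genes, 0 of 7 tested promoters passed, against the same 1.07%, and H2-K1, a ligand of Ly49 receptors, was at 0% to 1.15%. Of the 8 other protein-coding genes that start inside the cluster, 0 of 7 tested promoters passed, against 1.07% of all promoters. Cd69 was at 0% to 4.63% and Olr1 at 1.52% to 11.8%. Both genes themselves encode C-type lectin-like receptors. Clec7a, the gene of Dectin-1, is annotated as a polymorphic pseudogene in GENCODE vM21 and so is not a member. Its promoter (chr6:129471779-129473779) had 49.4% and 35.3% in Tet2+/+ and 65.4%, 74.7% and 56.6% in Tet2-/-, on 51 to 95 calls, a difference of 23.2 points with an exact permutation p of 0.1 (adjusted 0.167), the smallest that 2 against 3 libraries allow.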

How the data were processed

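Genomic DNA of sorted AML blasts was bisulfite converted and sequenced from post-bisulfite libraries (Pico Methyl-Seq). Per the submitters' processing notes and the methods of the study, the authors used FastQC 0.11.7, Trim Galore 0.4.3 and Bismark 0.19.1 with Bowtie 2 on GRCm38 (mm10) in non-directional mode, and removed duplicates. What the authors deposited for each CpG cytosine are raw counts, one of methylated and one of unmethylated calls, not normalized.

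Calls of both strands were added, and levels were methylated over all calls. Depth was 2.96 to 5.19 calls per dyad. Where no library had under 20 calls, promoters, gene bodies and 5 kb tiles entered the quasi-likelihood test of edgeR 4.0.16 (R 4.3.3), adjusted by Benjamini-Hochberg within each kind, with limma 3.58.1 as an alternative (prior count 2). Both were also run on simulated promoters and bodies, in which unchanged regions had the same expected level in every library. That simulation does not cover the genome-wide differences between these libraries. The members, role groups and lists were chosen with earlier results of these data known. Named genes were 4922502D21Rik, members that passed, the 5 largest differences in each direction without overlap, the 5 lowest and 5 highest promoters, the extremes of each role group, and a preset list of receptors. 500 bp windows, 1 kb bins, single CpGs, RefSeq starts and the CpG-poor background were added after the data were seen. Per the study, the libraries come from 2 Tet2+/+ and 3 Tet2-/- mice. Starts are those of GENCODE vM21 unless a RefSeq start is named, and printed sequences are from RefSeq, GRCm38.p6.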

Additional observations from a re-analysis of the deposited data

How the results depend on the processing

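No paired analysis was possible because the genotypes share no library numbers. The counts and medians here include 4922502D21Rik, which was chosen for its promoter difference, so its calls are no test. Member promoters that passed numbered 1, that gene alone (1.07% of all promoters passed), and, with the likelihood ratio test, 2 (5.50%); leaving out a library gave 0 to 2, with 0 without library 23 (0.108%) and 0 without library 24 (0% of all promoters). Member bodies that passed numbered 3 (15.5% of all bodies), and 5 with dyads called in all libraries (16.6%), 0 with limma (2.34%) and 0 with limma on centred log ratios (0.0290%); leaving out a library gave 0 to 5 (0.425% to 16.2%). Cluster tiles that passed numbered 7 (3.24% of all tiles), and 0 with limma on centred log ratios (0.0636%); leaving out a library gave 0 to 8 (0.0565% to 4.12%). The median promoter difference of 8.89 points was 4.57 after centring and 2.73 to 9.37 with a library left out. The median body difference of 5.55 points was -0.895 after centring. Centring takes the same amount off every promoter difference, and likewise off every body difference. The gaps between members and all promoters or all bodies are therefore not changed by it. The cluster's median minus that of the other members ran from -1.29 to 5.27 points for promoters with a library left out and from -0.703 to 0.901 for bodies, where it was 1.23 without members of repeated sequence and 2.24 for all members on chromosome 6. With limma on centred log ratios the direction turned for the Clec2i promoter (adjusted p 0.901) and for the bodies of Clec10a (adjusted p 0.898) and Clec16a (adjusted p 0.704). With 1 library left in an arm, its spread is taken from the other arm. The causes were not tested. Depth of 2.96 to 5.19 calls per dyad limits single CpGs and short windows most.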
